A study of Homo sapiens with 6 samples.

Results

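Antisense lncRNAs that lie wholly inside protein-coding genes were examined in K562 cells, an established human chronic myelogenous leukemia line. A long noncoding RNA gene was taken as a member where it overlapped coding genes on the opposite strand and on no coding gene's own strand, and where its counted transcript lay inside at least 1 of them and covered neither the start nor the end of any. Starts and ends were the outer bounds of the annotated coding gene (the host), not those of its counted transcript. Of 2490 members whose host had a counted transcript, 2317 lay inside that transcript, and the rest lay partly or wholly outside it. Divergent transcripts named with the ending -DT and a set of well-known host and housekeeping lncRNAs were left out by name. This gave 2560 transcription units (TUs) of 2559 genes, out of 37339 TUs that could be matched to the annotation. For comparison, 1272 antisense lncRNAs spanned the start of a coding gene and 683 spanned only ends. A further 140 antisense genes had a counted transcript outside every coding gene, and 31 transcripts inside a coding gene were left out by name.

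Nascent transcription was measured by PRO-seq, which sequences RNA at engaged RNA polymerases, in 2 libraries, and steady-state RNA by RNA-seq of total, rRNA-depleted RNA in 4 libraries. All cells came from a single flask grown in RPMI-1640 medium with fetal bovine serum and antibiotics and received no treatment, so the spread between libraries does not cover differences between cultures. The labels number the libraries within each assay and define no other groups. Levels are given in TPM (transcript abundance scaled to a fixed total), which corrects for library size and for length, and the relative half-life of a TU is its RNA-seq TPM divided by its PRO-seq TPM. Half-lives are reported on the log2 scale relative to the median mRNA, which is at 0. The study's authors state that this ratio assumes equilibrium and that PRO-seq depends on elongation rate as well as on transcription rate. Elongation was not measured here.

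An antisense lncRNA inside a gene is transcribed through the same DNA as its host, in the other direction. When both are active their polymerases meet on 1 template, and some such RNAs, KCNQ1OT1 among them, silence genes in cis at imprinted loci. Many antisense RNAs are spliced and polyadenylated like mRNAs, whereas others are turned over soon after synthesis by the nuclear exosome.

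A TU inside a gene has its own start, and the sequence there was compared with that of other promoters. Of the 2560 members, 535 had an entry in the RefSeq promoter table (GRCh38.p14), which gives 250 bases before and 50 after each annotated start, and for 410 of them the RefSeq start lay within 250 bases of the start of the counted transcript. The promoters below show a CpG-rich start and a pair of CpG-poor starts, with each CG dinucleotide in capitals. CATIP-AS1 (chr2:218367853-218368152, minus strand) was among the members with the highest PRO-seq level, DLGAP1-AS2 (chr18:3603487-3603786, plus strand) was high in both assays, and TENM2-AS1 (chr5:168232323-168232622, minus strand) was close to silent.
CATIP-AS1: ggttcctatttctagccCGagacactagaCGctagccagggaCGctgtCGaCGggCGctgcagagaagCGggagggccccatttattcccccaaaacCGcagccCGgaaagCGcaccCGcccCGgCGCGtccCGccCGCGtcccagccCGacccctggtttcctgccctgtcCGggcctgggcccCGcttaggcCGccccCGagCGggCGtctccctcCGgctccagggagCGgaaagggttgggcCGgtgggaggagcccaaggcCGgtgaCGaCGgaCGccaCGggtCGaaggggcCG
DLGAP1-AS2: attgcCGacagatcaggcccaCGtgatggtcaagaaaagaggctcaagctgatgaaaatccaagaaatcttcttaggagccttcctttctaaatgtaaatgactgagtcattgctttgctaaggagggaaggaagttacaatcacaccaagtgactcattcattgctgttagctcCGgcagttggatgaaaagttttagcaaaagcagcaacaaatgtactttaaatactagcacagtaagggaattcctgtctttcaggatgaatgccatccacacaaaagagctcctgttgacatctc
TENM2-AS1: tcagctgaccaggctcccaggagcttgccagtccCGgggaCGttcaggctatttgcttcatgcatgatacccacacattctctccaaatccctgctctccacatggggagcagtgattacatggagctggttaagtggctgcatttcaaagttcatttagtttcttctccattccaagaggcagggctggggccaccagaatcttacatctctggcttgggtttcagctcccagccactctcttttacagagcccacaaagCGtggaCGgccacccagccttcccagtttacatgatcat
CATIP-AS1 held 34 CG dinucleotides in 300 bases, DLGAP1-AS2 held 3 and TENM2-AS1 held 4. The RefSeq start was 17, 1 and 15 bases from the start of the counted transcript, respectively.

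The end of an RNA carries its cleavage and polyadenylation signal. The last 50 bases of the annotated transcript are shown for 2 of the 3 members with the highest relative half-lives (GIHCG, ZNF232-AS1) and for 3 of the 6 with the lowest (ENSG00000245261, ENSG00000260350, ENSG00000261766), with AATAAA or ATTAAA in capitals. They were picked for display by no fixed rule, with the values known, so they do not stand for the members as a whole.
GIHCG: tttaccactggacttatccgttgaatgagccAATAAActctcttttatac
ZNF232-AS1: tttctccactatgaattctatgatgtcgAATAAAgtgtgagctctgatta
ENSG00000245261: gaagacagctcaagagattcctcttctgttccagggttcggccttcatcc
ENSG00000260350: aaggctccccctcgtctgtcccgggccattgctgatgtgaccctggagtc
ENSG00000261766: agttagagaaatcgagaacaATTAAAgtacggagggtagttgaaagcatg
GIHCG and ZNF232-AS1 held AATAAA, ENSG00000261766 held ATTAAA, and the other two held neither. Over all members, 1078 of 2560 annotated transcripts (42.1%) held 1 of these hexamers in their last 50 bases, against 70.5% of 19032 mRNAs, 40.5% of antisense lncRNAs spanning a gene start and 47.9% of lincRNAs. Among members with a half-life estimate it was 57 of 111 (51.4%), of which 50 of the 101 called below the median mRNA and 7 of the other 10. These are properties of the annotated transcript models, whose ends can be incomplete.

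The members were short TUs set deep in long genes. Their median span was 4602.5 bp (as mapped on GRCh37) and their median exonic length 638 bp, against 27328 bp and 2709.5 bp for mRNAs. The median host was 138 kb long, and the median member began 65.6 kb from its host's start, 61.8% of the way through it. There were 2010 hosts. Of these, 1633 held 1 member and 377 held more, up to 10 in TENM2, which encodes the adhesion molecule teneurin-2, and 70 members lay in more than 1 host. No exon of 1448 members met a host exon (intronic members), whereas 1112 overlapped a host exon by at least 1 base. Only exons were compared, so an intron of an intronic member could still hold a host exon. In all, 179 members had a single exon.

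Library depth was similar in both assays. Between 5732780 and 9002746 counts fell on TUs in an RNA-seq library, and 6993816 and 7245632 in the PRO-seq libraries. RNA-seq libraries 1 and 3, and 2 and 4, were closer to each other than other pairs, with a chi-square of 1.12 per degree of freedom in both pairs against 1.74 to 2.11 in the rest. Counting noise alone gives 1, so these pairs were near it but not within it. They may be repeat libraries of the same RNA, which the labels do not say, and all 4 were kept as separate libraries, with the sums of the pairs as an alternative chosen after seeing the data. Of the erythroid genes that mark K562, GATA1, TAL1, KLF1, HBG1, HBG2, HBZ and TFRC had RNA-seq levels from 13.0 to 6222 TPM. Of the markers of other cell types, EPCAM was at 119 TPM and those of B cells, T cells, liver and fibroblasts that were matched stayed at 0.48 TPM or below.

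Members took a far larger part of nascent transcription than of steady-state RNA. They held 0.371% and 0.382% of the PRO-seq counts on TUs (mean 0.377% ± 0.00797, SD, n = 2) and 0.0770%, 0.0777%, 0.0755% and 0.0777% of the RNA-seq counts (mean 0.0770% ± 0.00104, SD, n = 4). Both PRO-seq libraries lay above all 4 RNA-seq libraries, at 4.89 times the mean share. The same order held for start-spanning antisense lncRNAs, with 1.04% and 1.05% of the PRO-seq counts and 0.105% to 0.107% of the RNA-seq counts. It is thus not particular to the members. An exact two-sided permutation test over the 15 arrangements of the libraries gave p = 0.133, the smallest it can give with 4 against 2. With the close RNA-seq libraries summed the shares were 0.0764% and 0.0777%, and 2 against 2 libraries (6 arrangements) cannot go below a two-sided p of 0.333. PRO-seq counts fall on the whole span and RNA-seq counts on exons, so this is a difference in counts and not per length. The most counted member was KCNQ1OT1 in all 4 RNA-seq libraries (482 to 833 counts) and LINC01004, in KMT2E, in both PRO-seq libraries (2210 and 2357 counts, each 8.5% of the members' total). LINC01004 (chr7:104590762-104653491, minus strand), named here after its values were seen, had 15, 7, 13 and 14 RNA-seq counts and a log2 relative half-life of -3.76.

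Detection followed the same order. At least 1 count was found for 1542 members in PRO-seq (60.2%) and for 1095 in RNA-seq (42.8%), with 774 counted in both assays and 697 in neither. Of antisense lncRNAs that spanned a gene start, 86.4% were counted in PRO-seq and 64.2% in RNA-seq, and of those that spanned only ends 85.2% and 61.2%. LincRNAs stood at 68.4% and 46.5%, and mRNAs at 87.9% and 84.9%. The classes also differed in length, with a median span of 16560 bp for start-spanning antisense lncRNAs and 4602.5 bp for members. The part of length in these shares was not tested. With a minimum of 10 counts, 512 members remained in PRO-seq, 215 in RNA-seq and 154 in both.

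Nascent transcription without much RNA was common. Of 281 members with a PRO-seq level over 10 TPM, 111 (39.5%) had an RNA-seq level over 1 TPM, and 31 had no RNA-seq count at all. For PRO-seq 1000 bp were taken off each span, and 88 of the 281 had under 1000 bp left. Of these 88, 26 were over 1 TPM in RNA-seq and 13 had no count, against 85 and 18 of the other 193. Only 42 of all members with under 1000 bp left reached 10 PRO-seq counts, so some of the 88 passed 10 TPM on fewer. Without regard to the length left, the step from 10 TPM in PRO-seq to 1 TPM in RNA-seq kept 61.6% of start-spanning antisense lncRNAs, 73.5% of those that spanned only ends, 63.0% of lincRNAs, 95.3% of mRNAs and 88.3% of all TUs. Across the 774 members counted in both assays, PRO-seq and RNA-seq TPM had a Spearman's rho of 0.628, against 0.709 for start-spanning antisense lncRNAs, 0.711 for lincRNAs, 0.835 for mRNAs and 0.542 for pseudogenes. The points share libraries and include many TUs with few counts. Among the 154 members with at least 10 counts in each assay rho was 0.201.

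**Figure D1:**
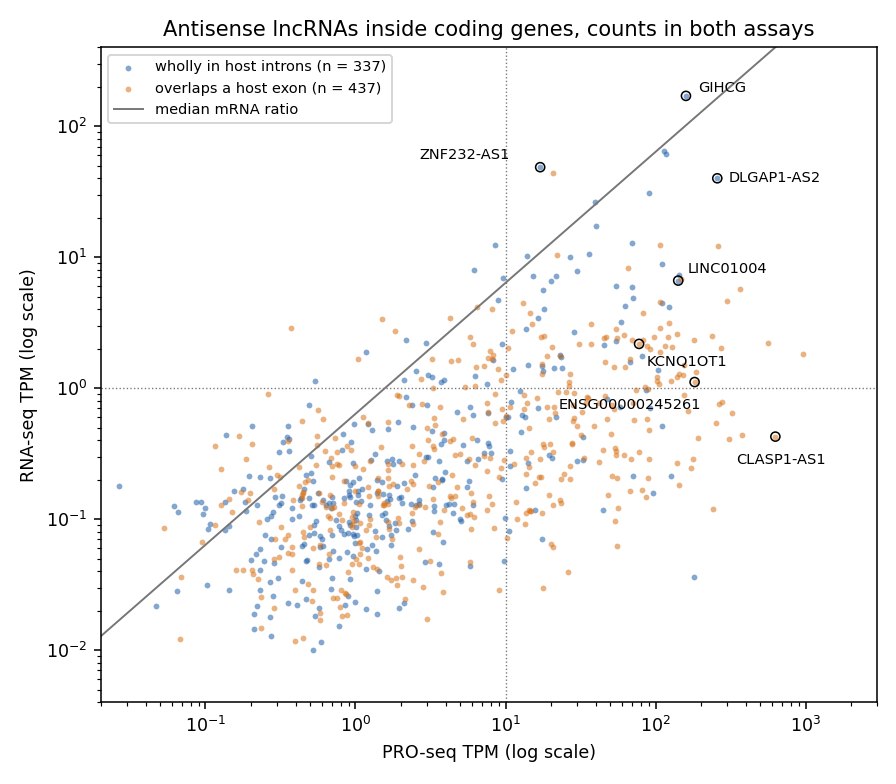
RNA-seq TPM (vertical, log scale) against PRO-seq TPM (horizontal, log scale) of the 774 members with a count in both assays, each point 1 member, blue for 337 intronic members and orange for 437 that overlap a host exon. The grey line marks the ratio of the median mRNA and dotted lines the 10 and 1 TPM thresholds; most points right of 10 TPM lie below the line, while GIHCG and ZNF232-AS1 lie above it.

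Members at the far ends of this range show the spread; the 4 described next were chosen after their values were seen. MYO3B-AS1 (chr2:171197706-171265074, minus strand), inside a gene for an unconventional myosin, had 610 and 551 PRO-seq counts and none in any of the 4 RNA-seq libraries. CLASP1-AS1 (chr2:122287998-122290281, plus strand), inside the gene of a microtubule-binding protein, had 232 and 190 PRO-seq counts and 0, 2, 2 and 0 RNA-seq counts. SLC16A4-AS1 (chr1:110912776-110915625, plus strand), a single-exon TU in an intron of a monocarboxylate transporter gene, had the opposite pattern. Its RNA-seq counts were 178, 263, 127 and 191, and no PRO-seq count fell on the 1850 bp left for counting. ENSG00000273149, in TPT1, had 473 RNA-seq counts and no PRO-seq count, but all of its exonic bases overlapped exons of a host with 46017 RNA-seq counts and only 145 bp were left for PRO-seq. At 10 or more counts in one assay and 0 in the other, 143 members had PRO-seq only, of which 82 were intronic. Another 21 had RNA-seq only, of which 16 overlapped a host exon and 10 kept 1000 bp or more for PRO-seq counting. Of all 2560 members, 1448 were intronic and 1112 overlapped a host exon. These one-sided TUs were not counted in other classes, so they cannot be called particular to the members.

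Of the members in the fit, 101 had a relative half-life below that of the median mRNA and 3 above it. The fit, edgeR's quasi-likelihood test of RNA-seq against PRO-seq counts with length offsets, covered the 10000 TUs that passed these thresholds, 111 of them members. At an adjusted p under 0.05 (Benjamini-Hochberg over all TUs tested), 101 of 111 members (91.0%) were below and 3 (2.7%) above, where 50.2% of all TUs tested were below and 40.2% above. The share below was 93.1% of 189 start-spanning antisense lncRNAs, 89.0% of 100 that spanned only ends, 87.3% of 497 lincRNAs, 75.3% of 186 pseudogenes and 44.9% of 8729 mRNAs. Whether the members' share differs from those of the other noncoding classes was not tested. With a minimum of 1 count in place of the TPM thresholds, 345 of 774 members (44.6%) were below, against 37.1% of all TUs tested. The gap between the shares called was thus much smaller there, where many members have too few counts to be called. The median of the members relative to mRNAs was -2.42 in that setting. An unstable RNA falls under 1 TPM sooner than a stable one, so the members with no estimate cannot be counted among either. The 10 TPM floor on PRO-seq also shuts out members with RNA but little nascent signal, which have high ratios. Neither the 21 members with 10 or more RNA-seq counts and no PRO-seq count nor the 143 with the reverse could enter. With at least 10 counts per assay and no TPM thresholds, 128 of 154 were below and the median was -3.51. How far such selection sets the share or the median was not tested.

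The median relative half-life of the 111 members was 12.0 times lower than that of mRNAs, at -3.58 on the log2 scale. Over the 8 pairings of 1 RNA-seq with 1 PRO-seq library it ranged from -3.63 to -3.36. Start-spanning antisense lncRNAs had a median of -2.88, end-spanning ones -2.56, lincRNAs -2.44, pseudogenes -2.14 and all TUs tested -0.24. The median of the members was 0.70 below that of start-spanning antisense lncRNAs (-0.91 to -0.58 over the pairings). This difference depended on which members entered it. It was -0.19 for the 85 members that kept 1000 bp or more for PRO-seq counting. For the 44 intronic members it was +0.32, in the other direction. Only the members were restricted: 32 of the 189 start-spanning TUs (16.9%) also had under 1000 bp left and stayed in. With a minimum of 1 count in each assay in place of the TPM thresholds the difference was -0.10.

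**Figure D2:**
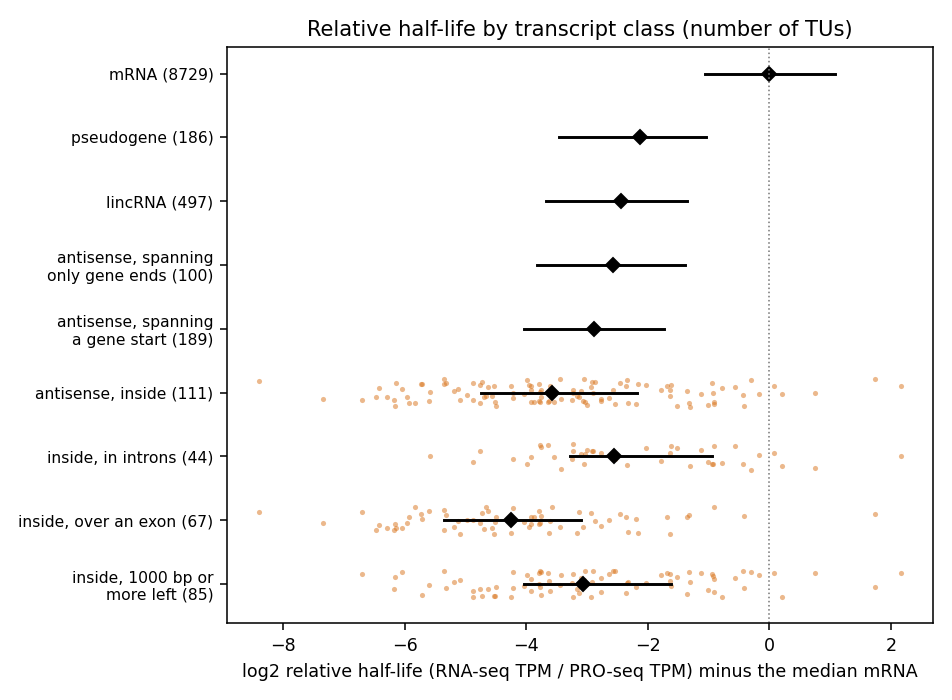
Log2 relative half-life minus that of the median mRNA (horizontal) for each transcript class, with diamonds at the median, lines from the first to the third quartile and, for the antisense lncRNAs inside coding genes and their subsets, 1 orange point per TU. Members over a host exon have a median of -4.26 and intronic ones -2.56, close to the -2.88 of antisense lncRNAs that span a gene start.

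Members over a host exon had lower half-lives than intronic ones. The median was -4.26 for 67 members that overlapped a host exon and -2.56 for 44 intronic ones, a difference of -1.70 that ranged from -2.14 to -1.47 over the 8 pairings of libraries. Of the former 63 were called below and 1 above, and of the latter 38 and 2. Under 1000 bp was left for PRO-seq in 34.3% of the former and 6.8% of the latter, and with such TUs left out the difference was -1.45. Single-exon members (23) had a median of -4.22 and those with more exons (88) one of -3.10, a difference of 1.12 (0.72 to 1.68 over the pairings), and 56.5% of the single-exon members had under 1000 bp left. The 26 members with under 1000 bp left had the lowest median of these subsets, -5.05. By distance of their start from that of the host, the median was -3.37 for the 2 members within 2 kb, -4.66 for 19 members at 2 to 10 kb, -3.86 for 62 at 10 to 100 kb and -2.19 for 28 beyond 100 kb. The part of length, overlap and distance in one another's differences was not tested.

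Of the 8 members with the highest RNA-seq TPM among those with at least 10 counts in each assay, 7 were intronic. GIHCG (chr12:58325311-58329958, minus strand), a lncRNA described in liver cancer, is intronic in ATP23, which encodes a mitochondrial protease of ATP synthase assembly. It was at 169, 178, 169.9 and 162 TPM in RNA-seq (mean 169.8 ± 6.86, SD, n = 4) and at 173 and 147 TPM in PRO-seq (mean 159.7 ± 18.5, SD, n = 2). The levels overlapped between the assays, and its relative half-life was 1.68-fold above the median mRNA (0.74 ± 0.09, SE, adjusted p = 1.4e-08, edgeR).

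ZNF232-AS1 (chr17:5014763-5017674, plus strand), intronic in a zinc finger gene, had the highest relative half-life of the members. The start of the counted transcript of its host ZNF232 lies within its span. Its RNA-seq levels were 52.3, 48.0, 53.3 and 40.8 TPM and its PRO-seq levels 12.1 and 21.8 TPM, so that every RNA-seq library lay above both PRO-seq libraries. It was 4.46-fold above the median mRNA (2.16 ± 0.30, SE, adjusted p = 7.47e-08, edgeR), on 6 and 11 PRO-seq counts. ENSG00000261448 (chr16:17228361-17232593, plus strand), inside XYLT1, whose product starts proteoglycan sugar chains, was at 49.6, 39.9, 47.3 and 38.6 TPM in RNA-seq and 23.9 and 17.6 TPM in PRO-seq. It was 3.31-fold above (1.73 ± 0.23, SE, adjusted p = 4.22e-08, edgeR) while its host was at 0.0146 TPM in RNA-seq. These 3 were the members called above, and each stayed above when any 1 library was left out.

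A further group was close to the median mRNA. NFE4 (chr7:102613939-102629303, plus strand), named for a factor of fetal globin expression and intronic in the F-box gene FBXL13, was at 64.9, 61.9, 61.9 and 70.7 TPM in RNA-seq and 121 and 107 TPM in PRO-seq. Its relative half-life did not differ beyond error (-0.16 ± 0.08, SE, adjusted p = 0.0583, edgeR), but it was called below with stricter thresholds (-0.20), without RNA-seq library 4 (-0.20) or without PRO-seq library 2 (-0.27), and above with a minimum of 1 count (0.50). KAZN-AS1 (chr1:14675451-14746085, minus strand), in the gene of the desmosomal protein kazrin, was at 28.4, 21.4, 31.4 and 25.8 TPM in RNA-seq and 39.2 and 39.5 TPM in PRO-seq (0.07 ± 0.10, SE, adjusted p = 0.493, edgeR), and was called above when the fit was centred on all TUs tested (0.31) or with a minimum of 1 count (0.73). In both the RNA-seq libraries lay below the PRO-seq libraries, at a ratio like that of the median mRNA.

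TMEM132D-AS1, PRSS23-AS1 and ZNF385D-AS1 were called slightly below, at -0.30, -0.44 and -0.56, but lay above (0.36, 0.22 and 0.10) in the fit with a minimum of 1 count in each assay. That fit was centred on the median of the mRNAs that passed its own filter. All 22 named estimates were 0.65 to 0.67 higher in it, so the change is not particular to these members. TMEM132D-AS1 (chr12:129594174-129597839, plus strand) was at 64.3, 60.1, 58.6 and 59.3 TPM in RNA-seq and 104 and 131 TPM in PRO-seq, whereas its host, a neuronal transmembrane gene, was at 0.0237 TPM in RNA-seq. ZNF385D-AS1 (chr3:21584308-21621451, plus strand) was the most variable of them, at 22.7, 15.7, 9.67 and 19.7 TPM in RNA-seq and 42.5 and 38.3 TPM in PRO-seq. The calls of TMEM132D-AS1 (adjusted p = 0.0252, edgeR) and PRSS23-AS1 (adjusted p = 0.0248, edgeR) were lost without PRO-seq library 2, with a minimum of 10 counts and when the fit was centred on all TUs tested (-0.07 and -0.20). That of TMEM132D-AS1 was also lost with 500 bp removed (-0.11), and that of PRSS23-AS1 with DESeq2 and without RNA-seq library 1 or 3. The remaining members not called were ENSG00000272817, JMJD1C-AS1, CLN8-AS1, GJD3-AS1 and NQO2-AS1, between -2.80 and 0.20, with 12 to 301 RNA-seq and 2 to 61 PRO-seq counts. These 5 were named after their values were seen.

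ENSG00000268119 (chr19:21627043-21646710, minus strand), intronic in ENSG00000269237, was at 25.2, 30.7, 33.5 and 36.2 TPM in RNA-seq and 88.9 and 92.7 TPM in PRO-seq. It was 1.87-fold below the median mRNA (-0.90 ± 0.11, SE, adjusted p = 7.39e-09, edgeR), and its RNA-seq libraries all lay below its PRO-seq libraries. With a minimum of 1 count the call was lost (-0.24, adjusted p = 0.0578, edgeR).

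**Figure D3:**
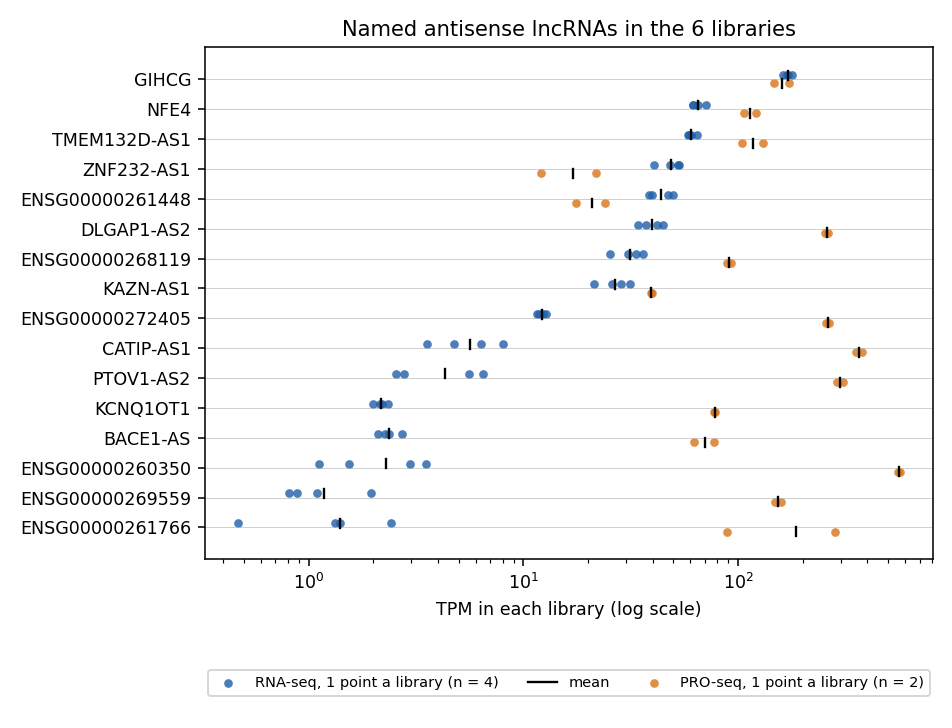
TPM of 16 named members (horizontal, log scale) in each of the 4 RNA-seq libraries (blue) and 2 PRO-seq libraries (orange), with black bars at the means. RNA-seq lies above PRO-seq in ZNF232-AS1 and ENSG00000261448, overlaps it in GIHCG and lies below it in the rest.

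Among members with at least 10 counts in each assay, 7 of the 8 with the highest PRO-seq levels overlapped host exons. DLGAP1-AS2 (chr18:3603736-3608334, plus strand), intronic in a postsynaptic scaffold gene, was the exception. It was at 255 and 261 TPM in PRO-seq and 37.4, 44.8, 34.2 and 42.1 TPM in RNA-seq, on 204 to 420 counts a library, and was 4.11-fold below the median mRNA (-2.04 ± 0.10, SE, adjusted p = 5.53e-18, edgeR). Its host DLGAP1 was at 0.0984 TPM in RNA-seq and 2.81 TPM in PRO-seq. ENSG00000272405 (chr1:156611458-156614679, minus strand), a single-exon TU in BCAN, the gene of the brain proteoglycan brevican, was at 266 and 256 TPM in PRO-seq and 12.8, 11.6, 11.9 and 12.4 TPM in RNA-seq. It was 13.6-fold below (-3.77 ± 0.12, SE, adjusted p = 1.02e-22, edgeR), and only 5.03% of its exonic bases met a host exon. The start of the counted BCAN transcript lies within the span of ENSG00000272405.

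CATIP-AS1 (chr2:219231384-219232608, minus strand), whose CpG-rich promoter is printed above, was at 378 and 354 TPM in PRO-seq and 4.77, 6.32, 3.55 and 8.04 TPM in RNA-seq, 40.0-fold below the median mRNA (-5.32). Only 225 bp of it were left for PRO-seq, and with 500 bp removed in all it stood at -3.69. PTOV1-AS2 (chr19:50360227-50362546, minus strand) was at 290.1 and 308 TPM in PRO-seq and 5.55, 6.48, 2.54 and 2.77 TPM in RNA-seq, 40.3-fold below. ENSG00000269318 in MPND reached 257 and 392 TPM in PRO-seq but stayed at 0.365 to 1.25 TPM in RNA-seq, below the RNA-seq threshold, and has no estimate. ENSG00000268069 in the histone deacetylase gene HDAC7 was 59.9-fold below (-5.90 on the log2 scale), on 5 PRO-seq counts in each library over the 80 bp left, and stood at -3.10 when 500 bp in place of 1000 bp were removed from each span. In these 4 the PRO-seq libraries lay far above every RNA-seq library.

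Among the lowest relative half-lives, ENSG00000245261 (chr6:43181539-43191598, minus strand), in the cullin gene CUL9, rested on the most counts. It had 412 and 450 PRO-seq counts over 9060 bp (176 and 188 TPM) and 0, 5, 6 and 4 RNA-seq counts (0, 1.23, 2.32 and 1.35 TPM). It was 101-fold below the median mRNA (-6.65 ± 0.20, SE, adjusted p = 1.28e-23, edgeR), and without RNA-seq library 3 it fell below 1 TPM and left the fit. All of its exonic bases overlap exons of CUL9.

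ENSG00000269559 in the folate enzyme gene MTHFD2L was 76.3-fold below, with 33 and 36 PRO-seq counts over 863 bp. Its span covers the start of the counted MTHFD2L transcript, and that of ENSG00000260350, named next, covers the end of the counted PMM2 transcript. ENSG00000259357 in the ceramide synthase gene CERS2, ENSG00000260350 in the phosphomannomutase gene PMM2, ENSG00000261766 in the adaptor gene SH2B1 and ENSG00000280758 in the spectrin gene SPTAN1 were lower or similar, at -8.33 to -6.36. These 4 had 8, 75, 175 and 358 bp left for PRO-seq and 4, 22, 17 and 51 PRO-seq counts in total, so their PRO-seq levels rest on few reads over short windows. With 500 bp removed in all they stood at -2.40, -4.38, -4.48 and -5.15, well above the -6.63 of ENSG00000245261 under that setting, and ENSG00000269559 at -5.65. Without PRO-seq library 1 or 2, ENSG00000259357 was at -7.31 or -8.95 and ENSG00000261766 at -6.97 or -5.33. The PRO-seq libraries of ENSG00000259357 stood far apart, at 1450.2 and 474 TPM.

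Of 20 antisense transcripts known from the literature, 7 were members by this rule. KCNQ1OT1 (chr11:2629558-2721224, minus strand), the imprinted antisense RNA of the potassium channel gene KCNQ1, had 778, 833, 482 and 651 RNA-seq counts and 1813 and 1866 PRO-seq counts over a single exon of 91667 bases. Per length this came to 2.16, 2.19, 1.99 and 2.35 TPM in RNA-seq and 77.3 and 78.1 TPM in PRO-seq. It was 22.7-fold below the median mRNA (-4.51 ± 0.05, SE, adjusted p = 1.28e-34, edgeR), and KCNQ1 itself was at 0.0451 TPM in RNA-seq and 0.375 TPM in PRO-seq. Only 0.132% of its bases met a host exon.

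BACE1-AS (chr11:117159169-117164191, plus strand), antisense to the beta-secretase gene, was at 2.28, 2.10, 2.73 and 2.38 TPM in RNA-seq and 62.5 and 77.3 TPM in PRO-seq. It was 19.0-fold below (-4.24 ± 0.20, SE, adjusted p = 6.19e-19, edgeR), and its host was at 0.0374 TPM in RNA-seq. The others were near silent, and HTT-AS lay wholly before the counted transcript of HTT. HTT-AS had 14 PRO-seq counts and 1 RNA-seq count, and DSCAM-AS1, EGFR-AS1, AIRN and NAV2-AS6 had at most 3 counts in either assay. For AIRN this held although its host IGF2R was at 33.6 TPM in RNA-seq.

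TENM2, the host with the most members, was itself near silent, at 0.0211 TPM in RNA-seq and 0.160 TPM in PRO-seq. TENM2-AS1 (chr5:167656588-167659362, minus strand) had the highest level of its 10 members in both assays, with 5, 4, 1 and 6 RNA-seq counts and 1 count in each PRO-seq library. ENSG00000253925 had 8 and 17 PRO-seq counts over its 102391 bp and no RNA-seq count. The other 8 had at most 2 RNA-seq and 5 PRO-seq counts each, and 3 of them had none in either assay.

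The level of a member followed that of its host only loosely. Spearman's rho between member and host was 0.319 for PRO-seq TPM (1472 pairs with counts) and 0.244 for RNA-seq TPM (998 pairs), the pairs sharing libraries and, for some, the host. In PRO-seq the median member was at 39.6% of its host's TPM, and 534 members (36.3%) were above their host. In RNA-seq it was at 4.44%, and 235 (23.5%) were above. Of the 63 members with a half-life estimate for both, 58 were below their host. Among pairs with at least 10 counts for member and host the median PRO-seq ratio was on the other side, at 0.22 on the log2 scale, so the order of member and host in PRO-seq depends on which members are counted.

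Members over a host exon were counted in RNA-seq more often where the host's own RNA level was higher. Of members that overlap a host exon, 42.0% had an RNA-seq count where the host was at 1 TPM or less, 52.4% at 1 to 10 TPM, 65.4% at 10 to 100 TPM and 86.7% above 100 TPM. For intronic members these shares were 28.8%, 38.2%, 38.8% and 48.8%. In PRO-seq the shares stayed between 56.4% and 67.4% over the same bins in both subsets. The median intronic member was at 13.0% of its host's RNA-seq TPM and the median member over an exon at 2.36%. Whether the counting used strand is not stated in the sources used here. Without it, reads of a member and of its host cannot be told apart over a shared exon or, in PRO-seq, over the shared span. Of the 2317 members inside the counted transcript of their host, 1376 (59.4%) had a PRO-seq count. Records marked as ambiguous between TUs made up 0.94% and 0.82% of those of the PRO-seq libraries and 1.53% to 1.65% in RNA-seq. Whether strand was used was not tested.

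**Figure D4:**
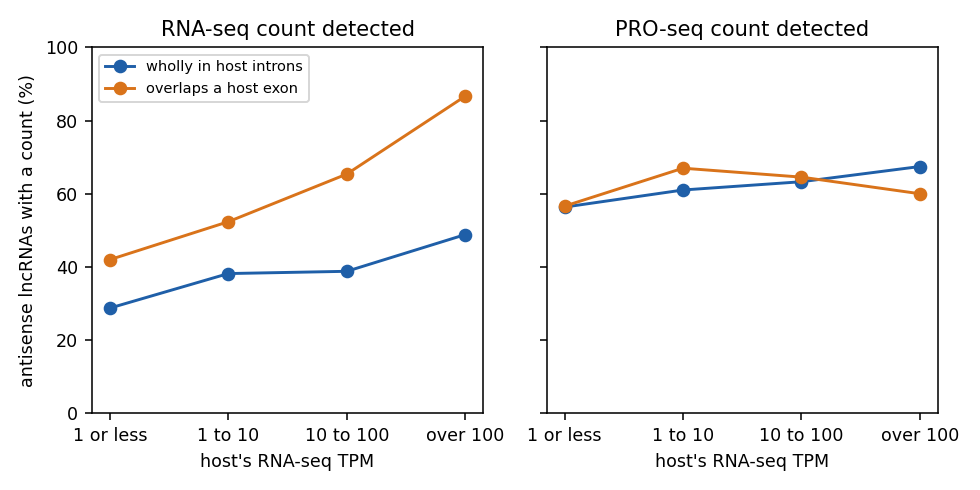
Share of members with at least 1 count (vertical, percent) in RNA-seq (left) and PRO-seq (right) by the RNA-seq TPM of the host (horizontal, 4 bins), for members with no exon over a host exon (blue) and members that overlap a host exon (orange). In RNA-seq the orange line climbs from 42.0% to 86.7% and the blue line from 28.8% to 48.8%, while in PRO-seq both stay between 56.4% and 67.4%.

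Promoters of members with a high PRO-seq level held more CpG than those of other members. Across the 535 matched promoters the median number of CG dinucleotides in 300 bases was 4, against 14 across all 27305 promoters in the table. It was 3 for 168 members with no PRO-seq count, 4 for 312 members counted at 10 TPM or less and 19 for 55 members above 10 TPM. A minimum of 20 was met by 8.33%, 11.2% and 49.1% of these promoters, and by 41.2% of all promoters. With only the members whose RefSeq start lay within 250 bases of the counted start the medians were 3, 4 and 21. DLGAP1-AS2, at 258 TPM in PRO-seq with 3 CG dinucleotides, shows that single members depart from this order.

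Short motifs were searched on both strands of the same promoters. GGGCGG, the core of the GC box, was found in 19.8% of the 535 members' promoters against 44.6% of all promoters. CCAAT was found in 33.1% against 35.7%, TATAAA in 13.1% against 12.0%, the E-box CACGTG in 5.79% against 7.43%, the GATA-type AGATAA in 14.8% against 10.5% and AATAAA in 23.4% against 17.8%. Of the printed promoters, that of CATIP-AS1 held GGGCGG and AATAAA, that of DLGAP1-AS2 held CACGTG and that of TENM2-AS1 held none of the 6. A match is a run of letters, not a binding site.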

How the data were processed

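For each of 2 PRO-seq and 4 RNA-seq libraries the authors deposited raw counts per transcript, with no normalization. Per the study's methods and processing notes, cutadapt was used for trimming, HISAT2 for alignment to GRCh38 and HTSeq for counting on GENCODE transcripts, with 500 bp omitted from both ends in PRO-seq. The sources used here state neither the tool versions nor the strand setting. Rows that name no TU held 66.5% to 68.6% of the records of RNA-seq libraries and 86.5% and 88.6% of those of PRO-seq libraries, and were left out. Counts on TUs numbered 5732780 to 9002746 per library, and the precision this gives is stated as SDs over libraries and standard errors (SE). The edgeR test gives no SE, so it was taken as the absolute log2 estimate divided by the square root of the test's F statistic.

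Transcripts were matched by identifier to GENCODE v44 lifted to GRCh37 (88.1% of 42371), which gave lengths, coordinates and hosts. Counts were summed over the libraries of an assay and converted to TPM, with exonic length for RNA-seq and span less 1000 bp for PRO-seq. The members, gene lists, comparisons and tests were chosen with earlier results of these data known. RNA-seq was tested against PRO-seq on raw counts with edgeR 4.0.16 in R 4.3.3 (quasi-likelihood test, TMM, length offsets, centred on the median mRNA) over TUs with more than 10 TPM (PRO-seq) and 1 TPM (RNA-seq). In data drawn for this comparison with a log2 change of 1 in 200 of 10000 TUs, 95.5% were recovered, with 5 false calls. The other TUs were unchanged in that draw, whereas 50.2% and 40.2% of TUs were called below and above in the data. It therefore does not give the rate of false calls there. Alternatives included DESeq2 1.42.0, other filters, lengths and scalings, a replicate block and leaving out each library. Python 3.11.15 was used elsewhere.

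Named members were the 8 highest in RNA-seq and in PRO-seq TPM among those with 10 counts in each assay, the 6 highest and 6 lowest half-lives with an adjusted p under 0.05 and 1 direction in libraries 1 and in libraries 2, the members of the host with the most, and those on a list known from the literature. The numbers of the libraries are labels within each assay and did not pair them. A K562 marker and a transcript end are not reported here.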

Additional observations from a re-analysis of the deposited data

Results flagged for a closer look

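In 4 of the 30 sets of RNA-seq levels examined over the 4 libraries, 1 library stood apart from the others by Dixon's criterion. Chance flags about 1 in 20 where values are normally distributed, which does not hold for counts this low. They were ENSG00000253947 in TENM2 (1.04 TPM), DSCAM-AS1 (0.644 TPM), EGFR-AS1 (0.116 TPM) and HTT-AS (0.468 TPM). In each, 1 library held the member's only RNA-seq counts, 1 to 3 of them, and the other 3 libraries held 0. Such a set is always flagged, so these 4 cannot be set against that rate.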

How the results depend on the processing

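The count of members below the median mRNA (101) was 99 with DESeq2, 101 with library totals, 96 when centred on all TUs, 98 with the replicate block, 99 with the closest RNA-seq libraries summed and 96 to 102 with 1 library left out. That above (3) was 3 to 4 under these settings. The same-numbered libraries did not deviate together (r = -0.04 over 10000 TUs), so they share only a number, and the block added 0 and removed 3 calls below, TMEM132D-AS1 (-0.27) and PRSS23-AS1 (-0.36) among them. With at least 10 counts in each assay and no TPM thresholds 128 of 154 members were below (83.1%, against 48.2% of all TUs tested) and 6 above, with at least 1 count 345 of 774 (44.6% against 37.1%) and 14, and with 20 and 2 TPM 55 of 60 (91.7% against 49.3%) below. The number with an estimate (111) was 774 and 60 under the last 2 filters. With at least 1 count, which moved all 22 named estimates up by 0.65 to 0.67, NFE4 turned to 0.50, TMEM132D-AS1 to 0.36, PRSS23-AS1 to 0.22 and ZNF385D-AS1 to 0.10. The median mRNA at 0 was there that of the mRNAs passing this filter.

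The medians kept their direction except where stated. Relative to mRNAs (-3.58) the median was -2.42 with at least 1 count, -3.17 with 500 bp removed, -3.08 with 1 TPM added, -3.17 with transcripts outside coding genes included and -3.60 to -3.48 with 1 library left out. Relative to start-spanning antisense lncRNAs (-0.70) it was -1.08 with at least 10 counts, -0.10 with at least 1, -0.998 with stricter thresholds, -0.49 with 500 bp removed, -0.29 with transcripts outside included and -0.87 to -0.64 with 1 library left out. Exon-overlapping against intronic members (-1.70) gave -2.46, -1.03, -1.33 with 500 bp removed, -1.95 with mean TPM and -2.001 to -1.501 with 1 library left out. Multi-exon against single-exon members (1.12) gave 1.69, 2.05, 0.74 with stricter thresholds, 0.68 with 500 bp removed and 0.80 to 1.44. With at least 10 counts rho was 0.201 between assays, and 0.412 (PRO-seq) and 0.143 (RNA-seq) between member and host, and 0.319 to 0.351 for the host in PRO-seq with 1 library left out. The median log2 ratio to the host turned from -1.33 to 0.22 in PRO-seq and was -3.42 in RNA-seq with at least 10 counts for member and host (463 and 167 pairs). With that minimum, 512 and 215 members were counted in PRO-seq and RNA-seq. The PRO-seq ratio was -1.62 with 500 bp removed and -1.06 to -0.88 with 1 library left out. With transcripts outside included the shares of counts were 0.105% and 0.631%.

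Restrictions chosen after seeing the data were those to members with 1000 bp or more left and to intronic members. Neither was applied to the classes compared. The first gave -3.07 against mRNAs, -0.19 against start-spanning antisense lncRNAs, -1.45 for exon overlap, rho of 0.591 and, for the host in PRO-seq, 0.271, and ratios of -1.47 and -4.31. The second left 44 estimates and 38 calls below, and gave -2.56, 0.32 (the other direction), 1.60 for exon number, 0.275 for the host in PRO-seq and a ratio of -2.94 in RNA-seq. The cause of these shifts was not tested. Stricter thresholds, a minimum of 1 count and a pseudocount leave rho as it is and were not run for it. Depth limits most members: those counted in both assays had medians of 2 RNA-seq and 8.5 PRO-seq counts.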
